A study of Mus musculus with 32 samples.

Results

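The genes described here build, release and rebuild synaptic vesicles: calcium sensors and related synaptotagmins, the SNARE fusion machinery, proteins of the vesicle membrane, docking and active zone scaffolds, and the endocytic proteins that retrieve vesicle membrane. They are 37 genes listed by symbol for these functions, among the 20660 symbols that named probes of the array carry. All 37 were on the array, with 55 probes, of which 24 genes had 1 probe and 13 had between 2 and 4. All 37 passed the filter on dim probes in both comparisons that involve ganglia, and 36 in the comparison between spheres.

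In neurons, vesicles filled with transmitter are tethered at the active zone by RAB3, RIM, Bassoon and Piccolo, primed by MUNC13, and fused when synaptotagmin senses calcium and the SNAREs (SNAP25, syntaxin, VAMP) zip together under the control of complexin. NSF and SNAP adaptors then take the SNARE complex apart, and dynamin, amphiphysin, synaptojanin and endophilin retrieve the membrane. Sympathetic ganglion neurons use this machinery to release noradrenaline, and neuroblastoma arises from the cells that would form them.

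RNA was measured on 32 one-colour arrays of 28 mouse samples in the strain background 129+Ter/SvJcl. Spheres passaged 5 times (4 cultures, 2 arrays each, averaged) and primary spheres after 8 days of culture (n = 8) came from 3-week-old TH-MYCN hemizygotes (TH-MYCN+/-). The superior mesenteric ganglion (SMG) of 3-week-old TH-MYCN hemizygotes (n = 8) and of 3-week-old wild-type mice (n = 8) gave the tissue samples. TH-MYCN mice carry human MYCN under a tyrosine hydroxylase promoter, which is active in catecholaminergic cells, so other cells of the ganglion are not the target of the transgene. All spheres carried the transgene. The labels do not say how many animals stand behind a sample, so p-values measure the spread between these samples. In whole ganglia, fewer cells of a type and less RNA per cell cannot be told apart.

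The array's 75th percentile signal was 321 to 538 in passaged spheres, 462 to 563 in primary spheres, 837 to 1356 in TH-MYCN SMG and 519 to 985 in wild-type SMG, and between 49.0% and 65.7% of spots were well above background. Samples of 1 group correlated at 0.966 to 0.994 over the named probes that were well above background in at least 4 samples. Levels below are log2 signals scaled so that 0 is the 75th percentile of the same array, and they are compared within a probe only. The labels give a pair of RNA amounts used for labelling without saying which samples received which, and the part of that amount in any difference was not tested. Every group held neuronal and noradrenergic transcripts: each of the 9 neuron markers and 8 noradrenergic markers was well above background on at least 1 array of every group. The ganglia were hybridised on slides 1 and 2, each holding 4 samples of both genotypes, and the spheres on slides 3 and 4. Ganglia and spheres shared no slide, so slide and group cannot be told apart between them.

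The first comparison asks how vesicle genes differ in the ganglion that carries the MYCN transgene. In TH-MYCN SMG 33 of the 37 genes were lower than in wild-type SMG, 1 was higher and 3 did not pass the test (limma, adjusted p under 0.05 over 15845 genes). Over all genes 65.8% were called, 44.1% as lower and 21.8% as higher. The median log2 difference was -0.71 over the 37 genes and -0.22 over all genes tested. Most falls were moderate: 5 genes fell by at least 1 on the log2 scale, where 6.28% of all genes did, and 1 was higher by as much, where 7.78% of all genes were. That 1 gene was Sv2b, whose probe was well above background on 7 arrays of TH-MYCN SMG and 1 array of wild-type SMG. With a normexp background correction its difference was -0.08 and was not called. In 11 genes every TH-MYCN SMG sample lay below every wild-type sample, which held for 12.6% of all genes, and no member had the opposite separation, which held for 9.02%. When arrays were centred on the median tested gene, 30 members were lower and 3 higher, with a median of -0.54, while the share of all calls that were higher was 48.5%, against 33.1% with the percentile scaling.

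**Figure D1:**
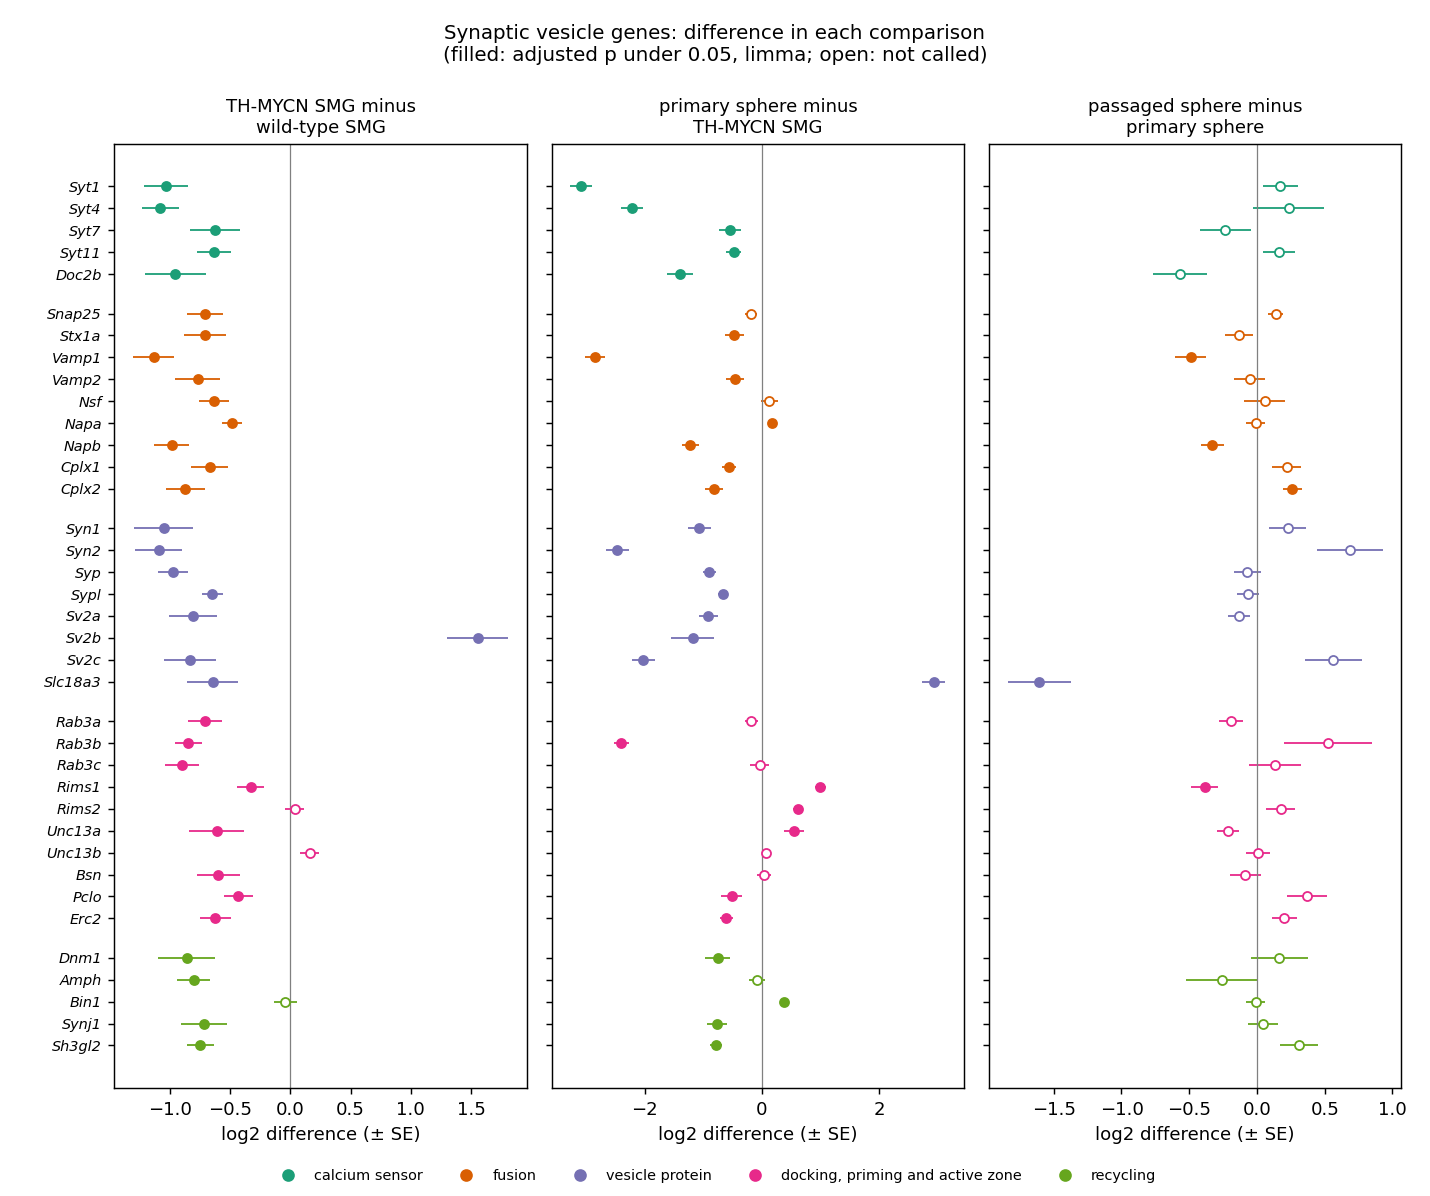
Log2 difference (x axis, ± SE) of each of the 37 genes (rows, coloured by role) in TH-MYCN SMG minus wild-type SMG, primary sphere minus TH-MYCN SMG and passaged sphere minus primary sphere; filled points passed the limma test and x scales differ. The first panel lies almost wholly left of 0, the second spreads from -3.08 for Syt1 to 2.93 for Slc18a3, and the third holds 5 filled points.

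All 5 calcium sensors and related synaptotagmins fell in TH-MYCN SMG, with a median of -0.95. Synaptotagmin 4 (Syt4, a synaptotagmin of dense-core and other secretory vesicles) had 2.14, 2.71 and 3.46 as its lowest, median and highest level in TH-MYCN SMG, against 3.62, 3.78 and 3.99 in wild-type SMG. The groups did not overlap, and the fall was by 1.08 (SE 0.15, adjusted p = 2.1e-05). Synaptotagmin 1 (Syt1, the fast calcium sensor of release) had 5.27, 6.28 and 6.70 in TH-MYCN SMG, against 6.88, 7.16 and 7.41 in wild-type SMG. Its groups did not overlap either, and the log2 difference was -1.03 (SE 0.18, adjusted p = 0.00017). Doc2b, a high-affinity calcium sensor, fell by 0.95, Syt11 by 0.63 and Syt7 by 0.62. The call of Syt7 was lost with median centring (adjusted p = 0.050).

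All 9 fusion genes fell as well, between -1.13 for Vamp1 and -0.48 for Napa. Vamp1 (synaptobrevin 1, a SNARE of the vesicle membrane) had 0.92, 1.43 and 2.30 in TH-MYCN SMG, against 2.40, 2.73 and 2.93 in wild-type SMG. The lowest wild-type sample lay just above the highest TH-MYCN sample, and the log2 difference was -1.13 (SE 0.17, adjusted p = 3.9e-05). Napb, which encodes the brain form of the SNAP adaptor, fell by 0.99 and its groups did not overlap. The SNAREs Vamp2, Snap25 and Stx1a fell by 0.77, 0.71 and 0.71, with overlapping groups. Nsf fell by 0.63, and the complexin genes Cplx1 and Cplx2 by 0.67 and 0.87.

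Of the 8 vesicle membrane genes 7 fell and 1 was higher. Synapsin 2 (Syn2, which ties vesicles to one another in the reserve pool) had 5.03, 5.87 and 6.58 in TH-MYCN SMG, against 6.41, 6.88 and 7.40 in wild-type SMG. The ranges overlapped, and the log2 difference was -1.09 (SE 0.20, adjusted p = 0.00017). Synapsin 1 (Syn1) had 4.18, 5.10 and 5.53 in TH-MYCN SMG, against 4.98, 6.01 and 6.50 in wild-type SMG. It also overlapped and fell by 1.05 (SE 0.24, adjusted p = 0.0013). Synaptophysin (Syp) fell by 0.98 and synaptophysin-like protein (Sypl) by 0.65, both with separate groups. The vesicle glycoprotein genes Sv2c and Sv2a fell by 0.83 and 0.81, and Slc18a3, the vesicular acetylcholine transporter, by 0.64. Sv2b alone was called higher, by 1.56 (SE 0.25, adjusted p = 7.0e-05). Its probe was well above background on 7 arrays of TH-MYCN SMG and 1 array of wild-type SMG, and with a normexp background correction its difference was -0.08 and was not called.

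Among docking, priming and active zone genes 8 of 10 fell. The RAB3 GTPases Rab3c, Rab3b and Rab3a fell by 0.90, 0.85 and 0.71, and Rab3b and Rab3c did so with separate groups. The Rab3c value is that of A_55_P1956567, and its probes A_55_P2095854 and A_55_P2182222 gave -0.30 and -0.39. The scaffolds Erc2, Bsn and Pclo fell by 0.62, 0.60 and 0.43, although Pclo was called higher, by 0.24, with the mean of its probes (adjusted p = 0.011). Rims1, the RIM that recruits priming factors and calcium channels, fell by 0.33 (adjusted p = 0.015). The priming factor Unc13a fell by 0.61 (adjusted p = 0.027), and this call was lost without TH-MYCN SMG 1, TH-MYCN SMG 2, wild-type SMG 5 or wild-type SMG 7 (adjusted p = 0.054 to 0.057). Its relative Unc13b, with 2.52 ± 0.07 in TH-MYCN SMG and 2.36 ± 0.18 in wild-type SMG (SD, n = 8 each), did not pass the test (adjusted p = 0.085). Rims2 differed by 0.04 and was not called. Under median centring both were called higher, Unc13b by 0.33 and Rims2 by 0.21, while the calls of Rims1 (-0.16, adjusted p = 0.24) and Unc13a (-0.44, adjusted p = 0.087) ended. The call of Unc13a also ended with quantile normalization (adjusted p = 0.050), and Unc13b was called higher there, by 0.25. Of the 5 recycling genes 4 fell: the fission enzyme dynamin 1 (Dnm1) by 0.86, amphiphysin (Amph) by 0.80, endophilin A1 (Sh3gl2) by 0.75 and synaptojanin 1 (Synj1) by 0.72. The log2 difference of Bin1, the widely expressed relative of amphiphysin, was -0.04 and was not called.

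The median fall was present within both slides, with fewer calls within slide 1. Within slide 1 the median difference was -0.66 with 20 genes lower and 1 higher, and within slide 2 it was -0.80 with 34 lower and 1 higher. Over all genes 4782 were lower and 2775 higher within slide 1, and 6758 lower and 3059 higher within slide 2. Within slide 1 the calls of Bsn (-0.23, adjusted p = 0.39) and Rims1 (-0.14, adjusted p = 0.50) ended, among others. Of 79 other genes of the pathway tested, 56 were lower, 7 higher and 16 not called. The other calcium sensors and complexins did not fall as a list. Of 9 tested, 4 were higher, 4 lower and 1 not called, with a median of -0.22. Doc2a, a neuronal relative of Doc2b, was among these 4 higher genes. It averaged 0.84 ± 0.65 in TH-MYCN SMG and -4.12 ± 0.47 in wild-type SMG (SD, n = 8 each), a rise of 4.96 (adjusted p = 2.2e-10). The largest called fall within each of the 5 lists of other genes was that of the choline transporter Slc5a7 (-1.29), the calcium sensor Syt2 (-1.27), the GTPase Rab3d (-1.14), the dynamin Dnm3 (-1.02) and the SNARE Stx3 (-0.86).

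Markers of other cell types and of the cell cycle also differed between the genotypes. All 8 proliferation markers were higher in TH-MYCN SMG. The summed level of 7 of them was 4.69 to 6.77 in TH-MYCN SMG and -0.34 to 0.86 in wild-type SMG. The eighth, Cdk1, was left out of this sum because its brightest probe read 5.89 in wild-type SMG 1 and between -7.53 and -3.84 in the other wild-type samples. All 7 macrophage markers were higher, with summed levels of 4.68 to 5.67 in TH-MYCN SMG and 4.00 to 4.54 in wild-type SMG. Of the glial markers 8 of 9 were lower, with summed levels of 5.99 to 6.53 in TH-MYCN SMG and 7.04 to 7.25 in wild-type SMG. Fibroblast markers were lower in 6 of 8 genes and higher in 1, Fbln1. Their sums were 7.47 to 7.77 in TH-MYCN SMG and 8.13 to 8.71 in wild-type SMG. Neuron markers were lower in 6 of 9 genes and higher in 1, with sums of 8.87 to 9.36 in TH-MYCN SMG and 9.45 to 9.75 in wild-type SMG. Noradrenergic markers were lower in 5 of 8 genes and higher in 1, with a median log2 difference of -0.54, and their sums of 9.42 to 10.10 in TH-MYCN SMG and 10.13 to 10.54 in wild-type SMG did not overlap. Endothelial markers were lower in 6 of 8 genes and smooth muscle markers in 6 of 7. Of pancreatic islet markers 3 of 6 were tested and 1 was lower, and of chromaffin and adrenal cortex markers 3 of 6 were tested and 1 was higher, Pnmt. In the lists before these last 2, no marker was below background on every array, except Aurkb in wild-type SMG. The part of these changes in the vesicle gene differences was not tested.

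The TH-MYCN ganglia differed among themselves. In the sample means and counts below, each gene is its brightest probe over the 4 groups. For Pclo and Rab3c these are A_55_P2014755 and A_55_P2095854, which are not the probes behind their ganglion differences above. The mean level over the 37 genes was lowest in TH-MYCN SMG 2 (2.17), 8 (2.25) and 1 (2.34), followed by 3 (2.57), 6 (2.61), 7 (2.77), 5 (2.80) and 4 (2.85). In TH-MYCN SMG 2 and TH-MYCN SMG 8, 32 of the 37 genes lay below their group mean, and in TH-MYCN SMG 4 only 4 did. The summed level of the 8 proliferation markers ran exactly the other way: 6.83, 6.77, 6.58, 6.52, 6.26, 5.87, 5.84 and 4.76 in the same order of samples. This holds across both slides and within each, and is a description of 8 samples with no test. Syt1, for example, was lowest in TH-MYCN SMG 2 (5.27) and 8 (5.49) and highest in TH-MYCN SMG 4 (6.70). Proliferation markers were not alone in varying with the vesicle genes. In the same order of samples the glial sums mostly rose: 6.06, 5.99, 6.23, 6.15, 6.23, 6.47, 6.39 and 6.53. The neuron sum was lowest in TH-MYCN SMG 8 (8.87) and 2 (9.04) and highest in TH-MYCN SMG 5 (9.36). The fibroblast sum was lowest in TH-MYCN SMG 1 (7.47). The part of each list was not tested.

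**Figure D2:**
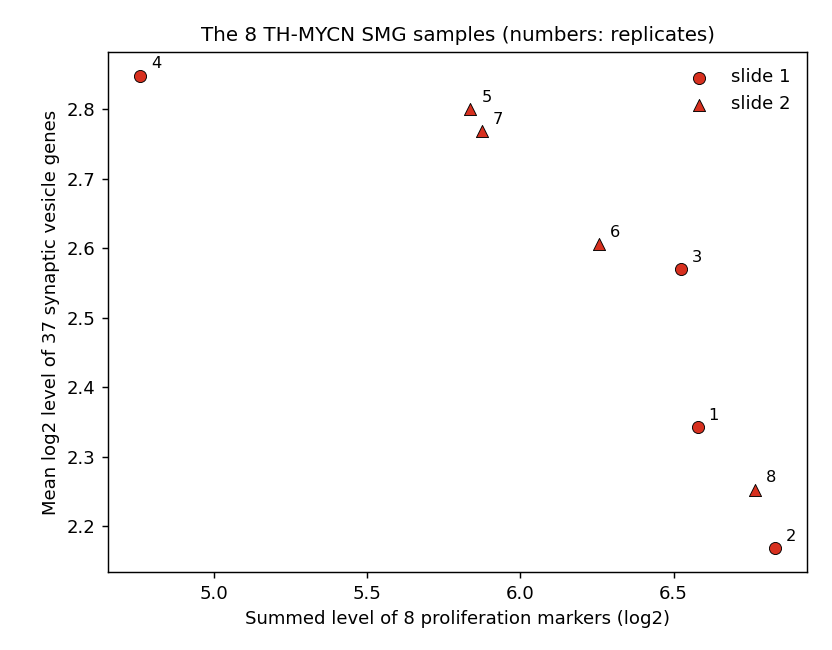
Each point is 1 of the 8 TH-MYCN SMG samples, numbered by replicate and marked by slide; the x axis is the summed level of 8 proliferation markers (log2) and the y axis the mean log2 level of the 37 genes. The points fall without exception from TH-MYCN SMG 4 (4.76, 2.85) to TH-MYCN SMG 2 (6.83, 2.17).

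The second comparison sets primary spheres, which were cultured from TH-MYCN mice, against TH-MYCN SMG. Here the genes of the set parted. In primary spheres 24 of the 37 were lower than in TH-MYCN SMG, 6 were higher and 7 were not called (limma, adjusted p under 0.05 over 15649 genes). Over all genes 83.2% were called, 32.9% as lower and 50.3% as higher. The median log2 difference was -0.56 over the 37 genes and 0.27 over all genes. In 10 genes the fall was by at least 1 on the log2 scale (-3.08 to -1.06), where 21.6% of all genes fell that far, and 1 gene rose by at least 1, where 16.1% did. The 10 include Sv2b, whose probe was well above background on 1 array of primary spheres. The groups lay apart in 17 genes, where 57.8% of all genes did: 13 were lower, against 23.3% of all genes, and 4 were higher, against 34.6%. With quantile normalization 30 members were lower and 4 higher, with a median of -0.86, and with median centring 27 were lower and 4 higher, with a median of -0.78. All gene calls split 60.4% higher with the percentile scaling, against 53.1% and 50.8% with these alternatives.

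All 5 calcium sensors and related synaptotagmins were called lower, Syt7 depending on its probe and the background correction. Syt1 had 2.71, 3.10 and 3.24 as its lowest, median and highest level in primary spheres, against 5.27, 6.28 and 6.70 in TH-MYCN SMG. The groups were far apart, and the log2 difference of -3.08 (SE 0.19, adjusted p = 1.5e-10) is a fall of 8.45-fold. Syt4 fell by 2.21 and Doc2b by 1.40, both with separate groups, while Syt7 fell by 0.54 and Syt11 by 0.48. The call of Syt7 was lost with normexp (-0.16, adjusted p = 0.29), and with the mean of its probes Syt7 was called higher, by 0.41 (adjusted p = 0.037).

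The fusion genes divided. Vamp1 had -1.54, -1.36 and -1.04 in primary spheres, against 0.92, 1.43 and 2.30 in TH-MYCN SMG. All spheres lay below all ganglia, and the difference was -2.84 (SE 0.17, adjusted p = 1.5e-10). Napb fell by 1.22, Cplx2 by 0.82, Cplx1 by 0.56, Stx1a by 0.47 and Vamp2 by 0.45. Snap25 had 3.51 ± 0.08 in primary spheres and 3.68 ± 0.28 in TH-MYCN SMG (SD, n = 8 each), a difference of -0.18 (SE 0.10, adjusted p = 0.12) that was not called; without TH-MYCN SMG 8 it was (-0.25, adjusted p = 0.0081), as it was with quantile normalization (-0.57) and median centring (-0.40). Nsf differed by 0.13 and was not called. Napa, the broadly expressed SNAP adaptor, was higher by 0.17 (adjusted p = 0.038), but its call was lost without any 1 of 11 of the 16 samples, and its difference turned to -0.45 with quantile normalization and -0.05 with median centring.

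**Figure D3:**
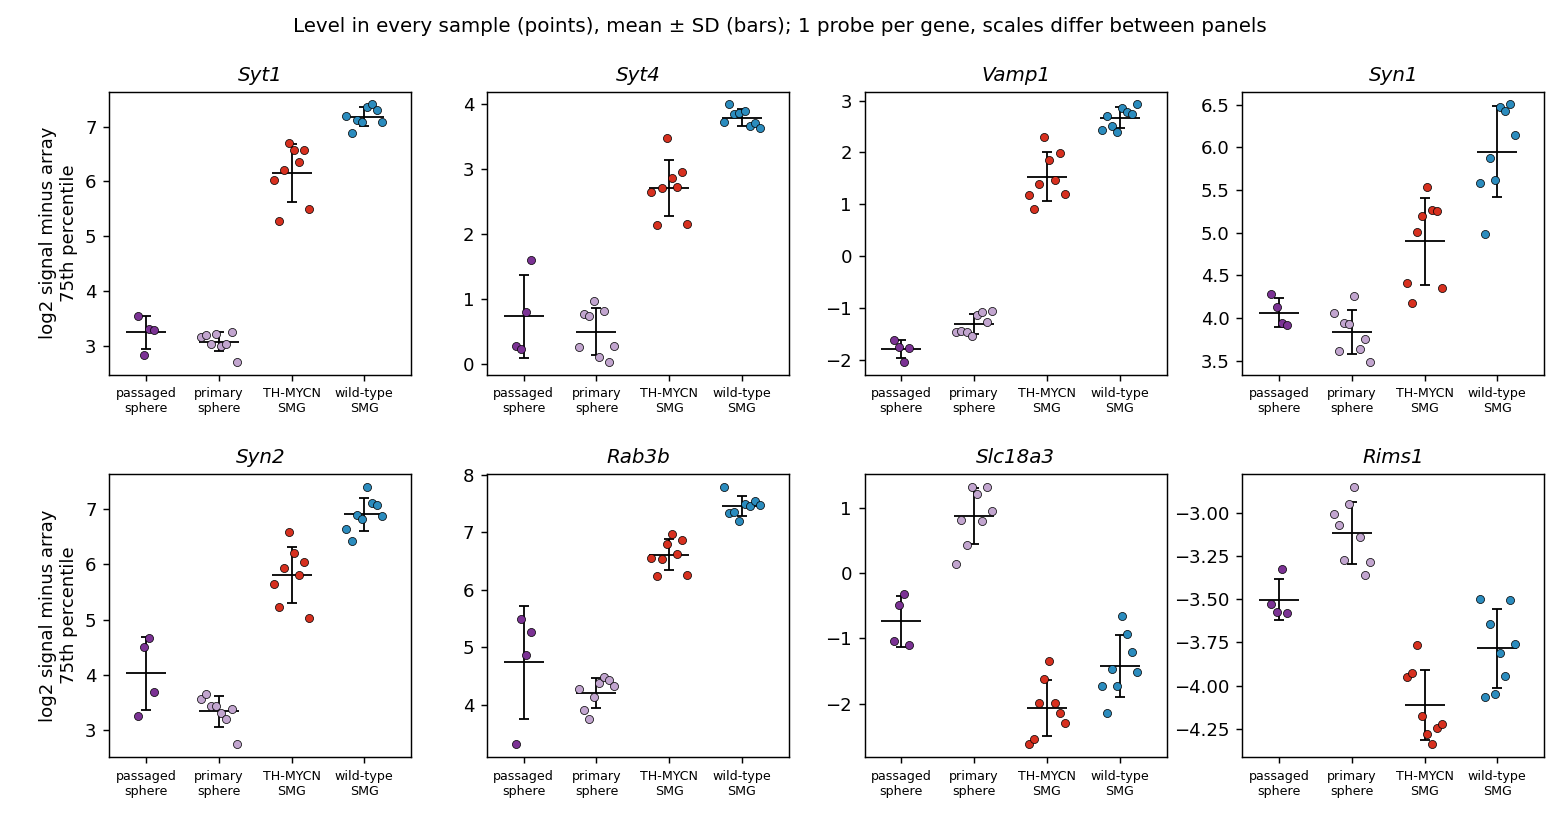
Level (log2 signal minus the array's 75th percentile, y axis, scales differ) of 8 genes in every sample (points), with mean ± SD, for passaged spheres (n = 4 cultures), primary spheres, TH-MYCN SMG and wild-type SMG (n = 8 each). Syt1, Syt4, Vamp1, Syn2 and Rab3b stand lower in both sphere groups than in both ganglion groups, and Slc18a3 is highest in primary spheres.

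Of the 8 vesicle membrane genes 7 were lower and 1 was higher, the largest rise among the 37 genes. Syn2 had 2.75, 3.41 and 3.66 in primary spheres, against 5.03, 5.87 and 6.58 in TH-MYCN SMG, with separate groups and a difference of -2.47 (SE 0.19, adjusted p = 4.0e-09). Sv2c fell by 2.02, Syn1 by 1.06, Sv2a by 0.91, Syp by 0.90 and Sypl by 0.66. Sv2b had a difference of -1.18, with its probe well above background on 1 array of primary spheres and 7 of TH-MYCN SMG, and turned to 0.43 with the normexp correction. Slc18a3, which loads acetylcholine into vesicles, had 0.13, 0.88 and 1.32 in primary spheres, against -2.61, -2.06 and -1.35 in TH-MYCN SMG. Every sphere sample lay above every ganglion sample, and the log2 difference of 2.93 (SE 0.20, adjusted p = 8.0e-10) is a rise of 7.63-fold. Over the alternatives of scaling, background, filter and fit that difference was between 2.53 and 2.94. Chat, the acetylcholine-making enzyme of the same locus, was not called (-0.21, SE 0.21, adjusted p = 0.35), and Slc5a7, the choline transporter of the same neurons, was lower and well above background on no array of primary spheres, against 8 of TH-MYCN SMG. Chat was named after its values were seen.

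Among the docking and priming genes 3 rose, 3 fell and 4 were not called. Rab3b had 3.75, 4.30 and 4.48 in primary spheres, against 6.24, 6.58 and 6.97 in TH-MYCN SMG, and its groups lay apart with a difference of -2.40 (SE 0.13, adjusted p = 3.7e-11). Rab3a differed by -0.18 and was not called, but was called lower with quantile normalization (-0.84), median centring (-0.40), normexp (-0.30) and array weights (-0.22), and without TH-MYCN SMG 8 (-0.24). The active zone organiser Rims1 had -3.36, -3.10 and -2.85 in primary spheres, against -4.34, -4.20 and -3.77 in TH-MYCN SMG. Its groups lay apart, with a difference of 1.00 (SE 0.10, adjusted p = 6.2e-08). Rims2 had -1.93, -1.70 and -1.39 in primary spheres, against -2.54, -2.32 and -2.14 in TH-MYCN SMG, which also did not overlap, and was higher by 0.63 (SE 0.08, adjusted p = 3.1e-06). Unc13a had -2.80, -2.66 and -2.54 in primary spheres, against -3.97, -3.19 and -2.69 in TH-MYCN SMG. These ranges overlapped, and the difference was 0.56 (SE 0.17, adjusted p = 0.0062). With median centring the difference of Unc13a was 0.33 and its call was lost (adjusted p = 0.081). Erc2 fell by 0.61 and Pclo by 0.52, and Unc13b, Bsn and Rab3c differed by 0.07, 0.04 and -0.04 and were not called. The call of Erc2 was lost with the mean of its probes (-0.16, adjusted p = 0.086). With quantile normalization Rab3c was called lower (-0.71), as was Unc13b (-0.20), and the mean of its probes also called Rab3c lower (-0.65). Of the recycling genes Sh3gl2 fell by 0.78, Synj1 by 0.76 and Dnm1 by 0.75, Amph differed by -0.08 and was not called (with quantile normalization it was, at -0.59), and Bin1 rose by 0.38 with separate groups. With normexp the difference of Synj1 was 0.05 and not called, and with quantile normalization that of Bin1 was -0.07 and not called.

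Probes of 1 gene did not always go together, and the gene values above rest on the brightest probe. That probe was chosen within each comparison, and over the 4 groups for the sample means of the TH-MYCN ganglia. For Rab3c and Pclo it changed between TH-MYCN SMG minus wild-type SMG and primary sphere minus TH-MYCN SMG, so their gene values do not follow the same probe. In primary sphere minus TH-MYCN SMG, 5 genes had probes called in opposite directions: Cplx2, Pclo, Napa, Erc2 and Syt7. For Cplx2 the probes A_51_P485161, A_55_P1962603, A_55_P2148402 and A_55_P2067960 gave -3.29, -0.82, 0.06 and 0.66, although all carry the accession NM_009946 and all were well above background on every array. For Syt7 A_51_P359173 gave -0.54 and A_55_P2044059 gave 1.35, the second being dim, above background on 7 arrays of primary spheres and none of TH-MYCN SMG. For Pclo, probe A_55_P2014755, with accession NM_001110796, gave 1.77 in TH-MYCN SMG minus wild-type SMG, where A_55_P2014750, with accession NM_011995, gave -0.43. With the mean of its probes Pclo was called higher there, by 0.24. In primary sphere minus TH-MYCN SMG the Pclo probes A_55_P2014750 and A_55_P2014755 gave -1.81 and -0.52, and A_55_P2058143 was called higher, by 0.47 (adjusted p = 0.029). In Rab3c, A_55_P1956567 fell by 1.73 in primary spheres while A_55_P2095854, which stands for the gene there, differed by -0.04.

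**Figure D4:**
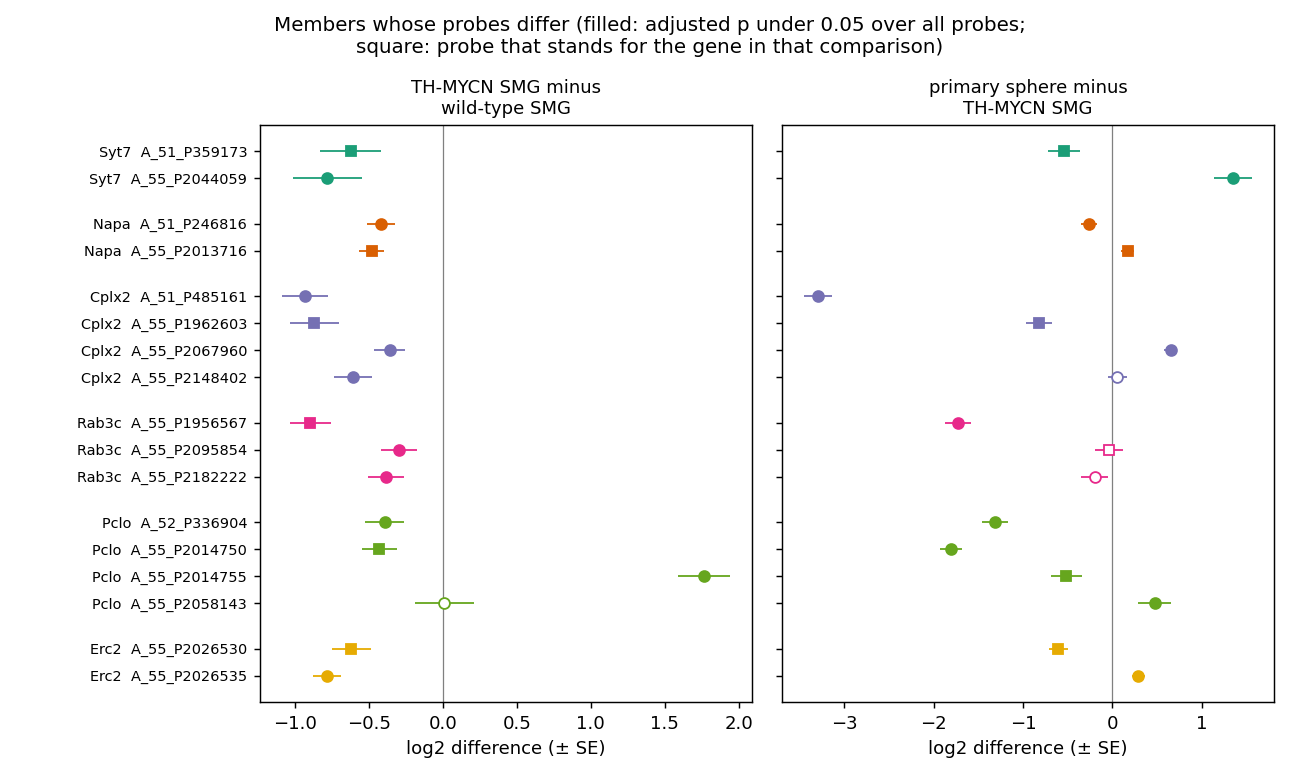
Log2 difference (x axis, ± SE) of each probe (rows) of 6 genes in TH-MYCN SMG minus wild-type SMG and primary sphere minus TH-MYCN SMG; filled symbols have adjusted p under 0.05 over all probes, and squares mark the probe that stands for the gene. The 4 Cplx2 probes lie together at -0.93 to -0.36 in the first panel and spread from -3.29 to 0.66 in the second.

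Other pathway genes divided too: of 79 tested in primary sphere minus TH-MYCN SMG, 40 were lower, 22 higher and 17 not called, with a median of -0.29. Of the 9 other calcium sensors and complexins tested, 3 were higher, 4 lower and 2 not called, with a median of 0.07. The calcium sensor Syt9 fell by 4.47 and Dnm3 by 3.52, and Syt13 rose by 1.29 and the endophilin Sh3gl1 by 0.97. All of these were well above background on all arrays of both groups. Markers of the other ganglion cells also moved. Macrophage markers were lower in 7 of 7 genes, with summed levels of -0.40 to 0.38 in primary spheres and 4.68 to 5.67 in TH-MYCN SMG, and C1qa and C1qc were above background on no array of primary spheres. Glial markers were lower in 8 of 9 genes and higher in 1, Mbp. Their sums were 3.69 to 4.56 in primary spheres and 5.99 to 6.53 in TH-MYCN SMG. Erbb3 was above background on no array of primary spheres. Fibroblast markers were lower in 7 of 8 and higher in 1, Fbln1, with sums of 1.65 to 3.68 in primary spheres and 7.47 to 7.77 in TH-MYCN SMG. All 8 proliferation markers were higher, with sums of 7.62 to 7.81 in primary spheres and 4.76 to 6.83 in TH-MYCN SMG. Endothelial markers were lower in 7 of 8 genes and higher in 1, Kdr, and smooth muscle markers were lower in 6 of the 6 tested. The sum of the 9 neuron markers was 9.58 to 9.80 in primary spheres and 8.87 to 9.36 in TH-MYCN SMG, with 6 genes higher and 2 lower. The 8 noradrenergic markers went the other way, with 5 lower and 2 higher, a median log2 difference of -0.85 and sums of 8.92 to 9.24 in primary spheres and 9.42 to 10.10 in TH-MYCN SMG. The part of these changes in the vesicle gene differences was not tested.

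REST represses many neuronal genes, vesicle genes among them, in non-neuronal cells by binding RE1 elements. The Rest probe A_51_P348456 averaged -6.96 ± 0.63 in primary spheres, -4.43 ± 0.30 in TH-MYCN SMG and -3.49 ± 0.22 in wild-type SMG (SD, n = 8 each). It was well above background on no sphere array and on every ganglion array. The brighter Rest probe A_55_P2143306, on which the test rests, was above background on 2 arrays of primary spheres and was lower there than in TH-MYCN SMG (-2.85, SE 0.40, adjusted p = 4.2e-06), and lower in TH-MYCN SMG than in wild-type SMG (-0.80, SE 0.25, adjusted p = 0.0098). Promoter windows of 300 bases, from 250 bases before to 50 bases after the start in RefSeq (GRCm38.p6), were at hand for 30 of the 37 genes, as 38 windows. Letters were searched on both strands: the RE1 left part TTCAGCACC, the RE1 right part (in capitals at bases 255 to 264 of the Unc13a window, on the opposite strand), the cyclic AMP response element TGACGTCA and the E-box CACGTG, which is bound by MYC family factors. None of these motifs overlaps another in the windows shown. The left part was in the windows of Syn1 and Unc13a and in 0.371% of all 32851 windows, and the right part in that of Unc13a and 0.137% of all. The response element was in 3 genes (Napa, Sh3gl2 and Syn1) and 1.79% of all windows, and the E-box in 4 (Napa, Nsf, Sv2b and Unc13b) and 7.15% of all. A match is a description of the letters. The windows are shown for both genes with an RE1 part, for Napa, which holds 3 E-boxes, and for Slc18a3, the gene with the largest rise in spheres. Capitals mark matches, and the sequences run 5′ to 3′ on the strand of the gene.

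Unc13a: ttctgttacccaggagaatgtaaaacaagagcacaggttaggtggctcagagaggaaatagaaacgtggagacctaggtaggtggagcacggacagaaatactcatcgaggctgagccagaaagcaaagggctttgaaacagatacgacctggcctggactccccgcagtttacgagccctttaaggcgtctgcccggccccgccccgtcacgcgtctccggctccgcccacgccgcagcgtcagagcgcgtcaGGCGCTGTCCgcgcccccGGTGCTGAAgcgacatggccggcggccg
Syn1: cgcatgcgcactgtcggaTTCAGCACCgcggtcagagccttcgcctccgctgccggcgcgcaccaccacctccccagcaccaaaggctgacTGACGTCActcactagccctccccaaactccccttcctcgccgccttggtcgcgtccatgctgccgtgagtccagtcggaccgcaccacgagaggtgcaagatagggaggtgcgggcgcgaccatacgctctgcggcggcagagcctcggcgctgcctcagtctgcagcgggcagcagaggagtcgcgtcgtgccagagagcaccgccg
Napa: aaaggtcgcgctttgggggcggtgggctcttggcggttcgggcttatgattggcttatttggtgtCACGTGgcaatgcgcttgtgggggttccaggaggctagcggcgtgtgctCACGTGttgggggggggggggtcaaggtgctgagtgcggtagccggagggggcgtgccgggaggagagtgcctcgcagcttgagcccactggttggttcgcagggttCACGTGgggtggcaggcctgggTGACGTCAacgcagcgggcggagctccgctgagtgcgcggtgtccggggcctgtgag
Slc18a3: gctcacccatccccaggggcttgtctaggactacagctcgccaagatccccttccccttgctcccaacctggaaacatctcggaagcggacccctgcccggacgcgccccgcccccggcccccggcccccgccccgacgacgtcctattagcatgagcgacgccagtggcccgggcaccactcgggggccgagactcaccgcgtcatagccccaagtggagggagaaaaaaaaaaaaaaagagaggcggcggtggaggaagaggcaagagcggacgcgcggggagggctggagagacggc

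Unc13a lies on the minus strand at chr8:71671708-71672007, with both RE1 parts in reverse orientation after the start. Syn1 lies on the minus strand at chrX:20920869-20921168, Napa on the plus strand at chr7:16098330-16098629 and Slc18a3 on the minus strand at chr14:32464801-32465100. The Slc18a3 window held none of these letters. Syn1 fell in both comparisons above, and Unc13a was called lower in TH-MYCN SMG and higher in primary spheres, with both calls lost under median centring.

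The third comparison asks whether passaging changed the vesicle genes of the spheres. In spheres passaged 5 times 4 of 36 genes were lower than in primary spheres, 1 was higher and 31 were not called (limma, adjusted p under 0.05 over 14156 genes, of which 11.5% were called, 6.59% as lower and 4.91% as higher). The median log2 difference was 0.03 over the 36 genes and 0.01 over all genes. The groups lay apart in 2 members, both lower, where 9.08% of all genes did, 4.63% as lower and 4.45% as higher. Of all calls 42.7% were higher, and 32.7% with quantile normalization, where the members were 4 lower and none higher. Sv2b was not tested, because its probe was above background on 1 array of primary spheres and none of passaged spheres.

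Slc18a3 made the largest of these changes. Passaged spheres 1 to 4 had -1.04, -0.49, -0.33 and -1.10, against 0.13, 0.88 and 1.32 as the lowest, median and highest in primary spheres. All passaged cultures lay below all primary spheres, and the difference was -1.61 (SE 0.23, adjusted p = 0.0020), a fall of 3.05-fold. It was -1.42 within slide 3 and -1.79 within slide 4, and its call stayed when any 1 sample was left out. With replicate number as a block, where no member was called, the difference of Slc18a3 was -1.41 (adjusted p = 0.056). Vamp1 had -1.62, -1.75, -2.03 and -1.78 in passaged spheres 1 to 4, against -1.54, -1.36 and -1.04 in primary spheres, again without overlap, and differed by -0.49 (SE 0.11, adjusted p = 0.019). The call of Vamp1 was lost without passaged sphere 4 (adjusted p = 0.054), with normexp (-0.30, adjusted p = 0.088), with all 4 groups in 1 fit (adjusted p = 0.095) and within slide 3 (-0.34, adjusted p = 0.095).

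The other calls were small. Rims1 had -3.53, -3.58, -3.32 and -3.58 in passaged spheres, against -3.36, -3.10 and -2.85 in primary spheres, overlapping at passaged sphere 3, and differed by -0.39 (SE 0.10, adjusted p = 0.030). Napb had 2.80, 2.63, 2.55 and 2.52 in passaged spheres, against 2.73, 2.96 and 3.15 in primary spheres, overlapping at passaged sphere 1, and differed by -0.33 (SE 0.08, adjusted p = 0.027). Cplx2, through its probe A_55_P2067960, had 6.13, 6.20, 6.43 and 6.41 in passaged spheres, against 5.95, 6.02 and 6.14 in primary spheres, overlapping at passaged sphere 1, and was higher by 0.26 (SE 0.07, adjusted p = 0.036). Leaving out 1 sample ended the call of Cplx2 in 7 of 12 cases, that of Rims1 in 4 and that of Napb in 3. With normexp all 3 calls were lost, Rims1 at -0.10, Napb at -0.32 and Cplx2 at 0.25. The mean of a gene's probes ended the calls of Rims1 (-0.14, adjusted p = 0.37) and Napb (-0.27, adjusted p = 0.055). The other Rims1 probe, A_55_P1974264, gave 0.11 and was not called (adjusted p = 0.68). Rims1 was also not called with slide as a block (adjusted p = 0.28), within slide 3 (adjusted p = 0.091) or within slide 4 (adjusted p = 0.26). The number of member calls ran from 1 without passaged sphere 4 to 9 without passaged sphere 1, 2 without passaged sphere 2 and 3 without primary sphere 4. Within slide 3 the count was 1 and within slide 4 it was 3, where 1030 and 962 of all genes were called.

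Rab3b was lowest in passaged sphere 1, with 3.31, where passaged spheres 2 to 4 had 5.49, 4.87 and 5.26 and primary spheres 3.75 to 4.48. Rab3b was not called with all cultures (0.53, SE 0.33, adjusted p = 0.31), and was higher by 1.00 without passaged sphere 1 (adjusted p = 0.0060). Syn2 had 3.26, 4.50, 4.66 and 3.70 in passaged spheres 1 to 4, against 2.75 to 3.66 in primary spheres, and was not called (0.68, SE 0.24, adjusted p = 0.087). Syt1 differed by 0.17 (SE 0.13, adjusted p = 0.41) and Snap25 by 0.14 (SE 0.06, adjusted p = 0.13). Of 74 other pathway genes tested 1 was higher, the monoamine transporter Slc18a1 by 1.39 (SE 0.30, adjusted p = 0.013), 7 were lower and 66 were not called. Of the proliferation markers 2 of 8 were higher, with sums of 7.84 to 8.14 in passaged spheres and 7.62 to 7.81 in primary spheres, and glial sums were 2.87 to 3.59 in passaged spheres and 3.69 to 4.56 in primary spheres. Their part in the vesicle gene differences was not tested.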

How the data were processed

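Levels were read from the 32 scanner files, whose gProcessedSignal is an intensity that Agilent Feature Extraction 11.5.1.1 background-subtracted and detrended within each array, per the file headers. The deposited value table holds log2 values. Once a probe-specific offset was taken off, 99.9% of them matched the percentile-scaled scanner values within 0.05, and no source used here says what the offset refers to. Spots flagged as outliers (109 to 211 per array) and control spots were dropped, saturation occurred on none, and repeated spots of a probe were averaged. Of 55681 probes 27235 were named for 20660 symbols through their RefSeq accession, and 28446 were unnamed.

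Each array's log2 gProcessedSignal was set relative to its own 75th percentile. A probe entered a fit when 4 or more of the compared samples had it well above background, and a gene is its brightest such probe. The 2 arrays of each passaged culture were averaged. Two-sided limma 3.58.1 (R 4.3.3) fits were made per pair of groups, with Benjamini-Hochberg adjustment over all genes tested and a threshold of 0.05, and the fit was tested on simulated data. Values by sample are given for members among the 4 largest called rises or falls of a comparison whose probe passed background on each array of whichever group was brighter. Alternatives were quantile normalization, median centring, normexp background (offset 50, on the median signal, since the files hold no mean signal), the deposited table, other filters, the mean of a gene's probes, a fit of all 4 groups, slide and replicate blocks, array weights, and samples left out. The member genes and gene lists were chosen with earlier results of these data known, as were the tests. Comparisons that share TH-MYCN SMG or primary spheres are not independent. The number of arrays limits the precision.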

Additional observations from a re-analysis of the deposited data

Results flagged for a closer look

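In 6 of 148 combinations of a member gene and a group, 1 sample stood apart from the rest of its group by Dixon's test at its 95% critical value; chance marks about 1 in 20. Primary sphere 8 was low in Syt1, with 2.71 against 2.99 to 3.24 in the other primary spheres, and in Rab3a, with 4.88 against 5.14 to 5.31. Wild-type SMG 2 was low in Syt11, with 5.29 against 5.80 to 6.15 in the other wild-type samples. TH-MYCN SMG 8 was high in Unc13b, with 2.67 against 2.46 to 2.55. Passaged sphere 1 was low in Cplx2 (probe A_55_P1962603), with 5.85 against 6.08 to 6.11 in the other cultures, and high in Sv2a, with 0.99 against 0.82 to 0.84.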

How the results depend on the processing

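In the ganglion comparison the count of members called stayed between 33 and 35 under every alternative except within slide 1, where it was 21. Leaving out 1 sample gave 33 to 35 members and 9838 to 10726 genes. In primary sphere minus TH-MYCN SMG the count was 28 to 34, with samples left out 29 to 31 members and 12814 to 13028 genes, and quantile normalization moved the members' median to -0.86. In passaged sphere minus primary sphere the 5 member calls became 1 with normexp, 3 with the mean of a gene's probes, 2 with all 4 groups in 1 fit, 1 within slide 3, 3 within slide 4 and 0 with the replicate block in limma (8 members had an unadjusted p under 0.05 there; Slc18a3 was at -1.41 with adjusted p = 0.056), and 1 to 9 with a sample left out. The 1628 genes called there became 978 with normexp, 5251 without a filter on dim probes, 2658 with array weights, 1030 within slide 3, 962 within slide 4 and 964 with the replicate block, and 779 to 1711 with a sample left out. The cause was not tested. With the replicate block 34 members were called in the ganglion comparison and 29 in primary sphere minus TH-MYCN SMG. Same-numbered samples did not deviate together throughout (pair correlations of -0.01 to 0.37, -0.08 to 0.15 and -0.01 to 0.21), so the numbers were not taken as pairs; in the last comparison all 4 pairs correlated best with their own number, a hint from the data.

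Differences that turned in sign, with a call on at least one side, were Sv2b (-0.078, normexp) and Pclo (0.24, mean of probes) in the ganglion comparison. In primary sphere minus TH-MYCN SMG they were Bin1 (-0.075), Napa (-0.45) and Unc13b (-0.20) with quantile normalization, Napa (-0.050) and Unc13b (-0.15) with median centring, Sv2b (0.43) and Synj1 (0.046) with normexp, and Napa (-0.042) and Syt7 (0.41) with the mean of probes. Dim signal limits the Sv2b differences. Its probe was well above background on 7 arrays of TH-MYCN SMG, 1 of wild-type SMG, 1 of primary spheres and none of passaged spheres.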
